A study of Mus musculus with 136 samples.

Results

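Wide SUZ12 domains of wildtype (WT) mouse embryonic stem cells (ESCs) are described here. They were chosen by 1 measured value, the width of a peak in the SUZ12 list of WT clone 410. Every peak of at least 6000 bp from start to end counted as a wide domain, which gave 460 domains among 6298 WT peaks, or 7.30% of them. The domains spanned 4.98 Mb and held 27.2% of all bases under WT SUZ12 peaks. They were followed into the SUZ12 lists of clones 439 and 442, both MCM2-2A, and compared with the histone marks mapped in WT clone 410.

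All cells were of the line E14JU (129/Ola background), grown in serum with LIF and otherwise untreated. In MCM2-2A cells the histone-binding domain of MCM2, a subunit of the replicative helicase that binds parental histones, is mutated, and in WT clone 410 it is intact. The series held 136 samples, and 10 peak lists were used. SUZ12 had been mapped by ChIP-seq on crosslinked, sonicated chromatin with 3 replicates per clone, and the histone marks by native ChIP-seq on MNase-digested chromatin, in an original experiment with 2 replicates and a rescue experiment with 3, both with a Drosophila spike-in. Each list combined the replicates of 1 clone, so the spread between replicates could not be measured, no test was made, and genotype cannot be told apart from clone. Shares are given with 95% Wilson intervals, which cover counting error only, and beside the same share over all WT SUZ12 peaks. All 28 genes of a pluripotency list were overlapped by H3K27ac and by H3K4me3 in WT. So were 83 and 84 of 84 ribosomal protein genes, but only 20 and 32 of 1109 olfactory receptor genes. Such overlap is not particular to pluripotency genes and does not identify the cell type.

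SUZ12 belongs to the core of PRC2, a Polycomb repressive complex that methylates histone H3 at lysine 27 and keeps developmental genes silent. In ESCs PRC2 binds CpG-rich promoters, and many of these also carry H3K4me3, a mark of active or poised promoters, in a state called bivalent. Hox clusters and the genes of other lineage-specifying transcription factors are the classic sites. H3K27ac marks active promoters and enhancers and excludes methylation of the same residue, whereas H3K9me3 marks constitutive heterochromatin.

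The sequences that follow show the DNA at which such domains sit. Each is the 250 bases upstream of a RefSeq gene start inside a wide domain (GRCm38.p6), printed 5′ to 3′ along the gene with every CG dinucleotide in capitals. Nkx1-1 (chr5:33434091-33434340, minus strand) had the strongest domain, Hoxd13 (chr2:74667975-74668224, plus) and Hoxa9 (chr6:52227371-52227620, minus) lay in the 2 widest, Uncx (chr5:139543648-139543897, plus) kept its extent, and Barhl2 (chr5:106458167-106458416, minus), Cdkn2b (chr4:89311033-89311282, minus) and Tbr1 (chr2:61804203-61804452, plus) lay in domains that were broken, absent or joined in the mutant lists.
Nkx1-1: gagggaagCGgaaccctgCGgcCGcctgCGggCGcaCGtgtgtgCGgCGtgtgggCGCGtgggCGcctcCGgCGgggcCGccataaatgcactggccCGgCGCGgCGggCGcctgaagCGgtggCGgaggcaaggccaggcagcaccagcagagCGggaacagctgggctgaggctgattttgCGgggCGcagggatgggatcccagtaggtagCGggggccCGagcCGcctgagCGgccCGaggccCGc
Hoxd13: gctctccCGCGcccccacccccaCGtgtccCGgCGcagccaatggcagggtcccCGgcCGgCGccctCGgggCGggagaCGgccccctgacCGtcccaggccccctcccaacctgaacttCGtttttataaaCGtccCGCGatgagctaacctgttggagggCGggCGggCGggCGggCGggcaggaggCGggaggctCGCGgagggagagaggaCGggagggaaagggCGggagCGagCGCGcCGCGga
Hoxa9: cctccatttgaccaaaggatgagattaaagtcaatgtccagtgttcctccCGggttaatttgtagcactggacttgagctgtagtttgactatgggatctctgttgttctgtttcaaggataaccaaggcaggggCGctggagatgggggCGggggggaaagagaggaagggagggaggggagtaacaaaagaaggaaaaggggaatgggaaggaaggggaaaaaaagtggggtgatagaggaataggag
Uncx: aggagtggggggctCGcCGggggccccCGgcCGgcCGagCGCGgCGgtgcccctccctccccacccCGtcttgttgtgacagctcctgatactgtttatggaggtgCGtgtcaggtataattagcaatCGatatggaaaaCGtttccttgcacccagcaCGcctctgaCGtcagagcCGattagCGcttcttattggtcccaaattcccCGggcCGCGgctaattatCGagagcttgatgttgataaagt
Barhl2: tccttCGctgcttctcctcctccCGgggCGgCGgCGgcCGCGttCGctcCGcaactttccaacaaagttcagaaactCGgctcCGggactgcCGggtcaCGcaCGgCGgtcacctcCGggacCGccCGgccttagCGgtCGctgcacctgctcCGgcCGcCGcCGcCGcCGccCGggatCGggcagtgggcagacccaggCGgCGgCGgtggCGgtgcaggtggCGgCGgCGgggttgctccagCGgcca
Cdkn2b: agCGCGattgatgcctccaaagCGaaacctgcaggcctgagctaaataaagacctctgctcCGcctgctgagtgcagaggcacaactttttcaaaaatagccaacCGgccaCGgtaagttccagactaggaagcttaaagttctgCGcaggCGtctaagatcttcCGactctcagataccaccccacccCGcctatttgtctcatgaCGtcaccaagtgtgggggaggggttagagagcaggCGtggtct
Tbr1: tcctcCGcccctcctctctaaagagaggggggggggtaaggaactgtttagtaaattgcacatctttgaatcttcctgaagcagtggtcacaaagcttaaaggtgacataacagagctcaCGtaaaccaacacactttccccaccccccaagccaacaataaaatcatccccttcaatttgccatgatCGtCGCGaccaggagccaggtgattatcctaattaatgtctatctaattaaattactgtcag
The windows held 30 CG for Nkx1-1, 31 for Hoxd13, 3 for Hoxa9, 20 for Uncx, 36 for Barhl2, 12 for Cdkn2b and 5 for Tbr1. Among the 350 start windows in wide domains the median was 16 CG (quartiles 10 and 22), and 274 of them (78.3%) held at least 10 CG, against 50.1% of all 21262 windows of this length. The 2965 start windows in narrower WT SUZ12 peaks gave 78.3% as well, with a median of 18 CG, whereas windows outside SUZ12 peaks gave 44.9% and a median of 8. By this count the windows in wide domains matched those under narrower SUZ12 peaks and were richer than those without SUZ12. At least 1 CG was present in 99.7% of windows in wide domains and 93.4% of all windows.

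Width and strength went together in WT. The domains ranged from 6001 to 66386 bp, with a median of 8958 bp (95% interval of the median 8496 to 9495) and 19 of them at 20 kb or more. Their fold enrichment over local background, the strength value of the list, ran from 4.70 to 166 with a median of 69.6, against 13.4 over all WT peaks. Across all 6298 peaks the rank correlation of width with fold enrichment was 0.823, and within the 460 domains it was 0.359. Both values come from the same reads and the width chose the domains, so these are descriptions. Just inside the threshold lay a Bcor peak of 6001 bp, a Matn4 and Rbpjl peak of 6027 bp and a Pou3f1 peak of 6029 bp. Just outside it lay a Pappa peak of 5993 bp, an Nfix peak of 5981 bp and a Dlx4 peak of 5978 bp.

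**Figure D1:**
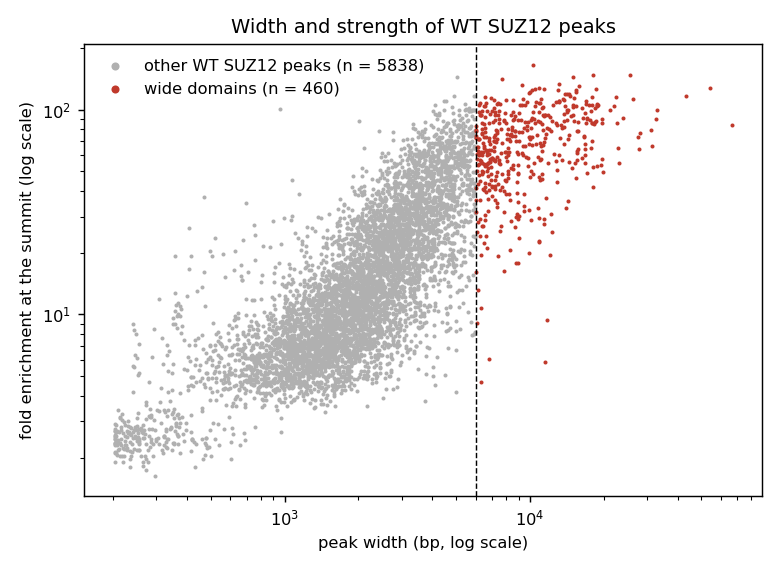
Width (bp, log scale) against fold enrichment at the summit (log scale) of the 6298 WT SUZ12 peaks; each point is 1 peak, the dashed line stands at 6000 bp and the 460 wide domains are red. Stronger peaks tend to be wider (rank correlation 0.823 over all peaks), and the wide domains range in fold enrichment from 4.70 to 166.

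The widest domains lay over developmental regulators. A single domain of 66386 bp (chr6:52188912-52255297) held Hoxa3 to Hoxa11, members of the family that sets position along the body axis. The next was 54383 bp wide (chr2:74653687-74708069) with Evx2 and Hoxd8 to Hoxd13, followed by 43316 bp over Hoxb3 to Hoxb8 (chr11:96278547-96321862). Nr2f2, an orphan nuclear receptor of vessel and nerve development, had 33068 bp, and Pax3, a factor of neural crest and muscle precursors, 32782 bp. Also among the 10 widest were domains of 31584 and 27858 bp over Hoxc4 to Hoxc8 and over Hoxc9 and Hoxc10, and one of 27678 bp over Bmi1, a subunit gene of the second Polycomb complex, PRC1, with its neighbours Commd3, Gm46725 and Spag6. The domain at Pax3 also covered Gm2102.

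Strength ordered the domains differently. Nkx1-1, a homeobox gene, headed the whole WT list with a fold enrichment of 166 over a domain of 10257 bp. Uncx, a homeobox gene of somite patterning, followed with 148 over 25537 bp, and Skor1, a transcriptional corepressor, with 147 over 18105 bp. Gata6 (143), Foxd1 (141), Tbx1 (133), Foxe1 (131), Olig2 (130), Evx2 with Hoxd8 to Hoxd13 (127) and Isl2 (127) came next among the domains, all genes of lineage or organ specification. Of the 10 strongest, the HoxD domain alone was also among the 10 widest.

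Wide domains overlapped the bodies of 484 protein-coding genes, 2.21% of 21896, whereas any WT SUZ12 peak overlapped 21.2%. All but 39 domains overlapped a gene body (91.5%, against 83.7% of all WT peaks), and 154 (33.5%, interval 29.3 to 37.9) held a whole gene, against 3.95%. A wider interval can hold more, so these 2 shares also follow from the width rule. Start sites on chromosome 18, which held 20 of the domains, were not used here, and of the other 440 domains 266 (60.5%) contained a gene start, against 47.1% of peaks. Width alone can raise this share too.

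Among gene families, 36 of 39 Hox genes lay under a wide domain and 38 under any SUZ12 peak. Other homeobox genes followed with 86 of 121 (110 under any peak), Pax genes with 6 of 9 (7) and T-box genes with 11 of 17 (13). Gata genes gave 4 of 6 (5), namely Gata2, Gata3, Gata4 and Gata6. Fox genes gave 18 of 44 (28), Sox genes 8 of 19 (16) and Zic, Gli and Klf zinc finger genes 13 of 47 (26). Nuclear receptor genes had the lowest share of these families, 8 of 45 (27). In families that SUZ12 covered as often, wide domains could be fewer: 18 of 61 lineage genes of the basic helix-loop-helix family had one although 51 had a peak, and 18 of 84 Wnt, Fgf, Bmp and Hedgehog ligands and antagonists although 61 had a peak. Shh had 14169 bp and Wnt5a 17790 bp. Over the 10 transcription factor lists together, 208 of 408 genes were in wide domains and 321 under any peak. Of the domains, 196 (42.6%) overlapped a gene of these lists, against 6.13% of all WT peaks, and width alone can raise that share. These lists were drawn up with earlier results of the data known.

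Further lists marked the limits of this pattern. No wide domain overlapped any of 84 ribosomal protein genes or 1109 olfactory receptor genes, and any WT SUZ12 peak overlapped 0 and 2 of them. Of 28 pluripotency genes, Tbx3 and Gbx2 alone had a wide domain. Among genes of Polycomb complexes, Bmi1 and Bcor had one, both of the PRC1 side. Imprinted genes gave 5 of 31, Grb10, Igf2, Dio3, Cdkn1c and Dlk1. The 28 of 57 clustered protocadherin genes came from only 3 domains, because these genes share their last exons and their annotated bodies lie within one another, so 1 domain overlapped as many as 17.

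The next comparison asked whether these domains were still present in MCM2-2A cells. A SUZ12 peak of clone 439 touched 456 of the 460 domains (99.1%, interval 97.8 to 99.7), against 92.5% of all WT peaks. For clone 442 it was 458 (99.6%, interval 98.4 to 99.9), against 93.4%. Both clones are set against the same WT list throughout, so a feature of that list enters both comparisons, and their values are given side by side. Peaks of 4000 to 6000 bp in WT were touched as often, 698 of 701 in each clone, and the lower share over all peaks came from those under 2000 bp, of which 84.2% and 86.2% were touched.

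For 6 domains a peak was lacking in 1 clone, and all 6 were among the 115 weakest domains by fold enrichment. No domain lacked a peak in both. In clone 439 these were Bcor (chrX:12075370-12093468, 18099 bp), a PRC1.1 subunit gene, Cdkn2b (chr4:89299213-89311330, 12118 bp), a cell cycle inhibitor and long-known Polycomb target, Tbx3 (chr5:119665322-119676224, 10903 bp), a T-box gene active in ESCs, and a domain next to Nkx2-3 (chr19:43596701-43604972, 8272 bp). In clone 442 they were a domain within Meis2 (chr2:115850879-115862340, 11462 bp), a homeobox gene, and a domain next to Tlx1 (chr19:45141899-45149311, 7413 bp). For 4 of them the nearest peak of the same clone stood close, at 93 bp (Nkx2-3), 109 bp (Tlx1), 389 bp (Cdkn2b) and 417 bp (Tbx3). For Bcor it was 31329 bp away and for Meis2 197812 bp. Beside the domains at Nkx2-3, Tlx1 and Cdkn2b the WT list already held a separate peak, of 15396, 11903 and 6379 bp. The close mutant peaks there were 15908, 11915 and 8697 bp wide, so a close peak can answer to that WT neighbour. The other clone held 50.9% of the Bcor width, 75.0% at Tbx3, 47.1% beside Tlx1, 102% at Cdkn2b, 103% at Meis2 and 108% beside Nkx2-3. The Bcor, Tbx3 and Tlx1 domains were thus absent from 1 clone and short in the other, whereas the other 3 were absent from 1 and whole in the other.

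Extent was measured as the summed width of all mutant peaks that touched a domain, as a percentage of its WT width. The median extent was 100.7% in clone 439 (quartiles 96.9 and 106, 95% interval of the median 100.1 to 101.3) and 101.2% in clone 442 (quartiles 97.4 and 108, interval 100.3 to 102.0). Over all WT peaks the medians were 106% and 110%. Extents above 100% were found for 254 domains (55.2%) in clone 439, against 63.7% of all peaks, and for 271 (58.9%) in clone 442, against 69.5%. By these medians wide domains lay nearer to their WT width than peaks at large, and peaks of 4000 to 6000 bp had 101.6% and 104.1%. The WT width both chose the domains and divides the extent, so the choice itself enters this comparison. Taken the other way, domains of at least 6000 bp in the lists of clones 439 and 442 had median extents of 98.2% and 97.0% in WT. An extent between 80% and 125% was measured for 407 domains in clone 439 (88.5%, against 61.8% of all WT peaks) and for 398 in clone 442 (86.5%, against 56.7%). A fixed shift of an edge is a smaller share of a wide peak, which bears on this comparison: the median shift of an edge, in either direction, was 171 bp in clone 439 and 181.5 bp in clone 442 for wide domains, and 155 and 178 bp for all peaks. Between the 2 mutant clones the edges of wide domains differed by a median of 173 bp, as much as either differed from WT.

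Of the 908 edges of domains present in both clones, 149 lay more than 500 bp outside the WT edge in clone 439 and 173 in clone 442, whereas 100 and 104 lay more than 500 bp inside it. In each clone the other edges stayed within 500 bp of the WT edge.

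Few domains shrank. An extent under 80% was measured for 21 domains in clone 439 (4.57%, against 12.2% of all peaks) and 19 in clone 442 (4.13%, against 10.6%). Besides the Bcor, Tbx3 and Tlx1 domains, Pax1 (chr2:147357901-147368917), at 78.1% and 78.2%, and a domain over Fbxl8 and Hsf4 (chr8:105266239-105273030), at 73.9% and 76.4%, were under that limit in both. Other losses were seen in 1 clone. The 22566 bp domain of Sox1 (chr8:12381894-12404459), a neural determinant, fell to 29.9% in clone 439 and measured 103% in clone 442. Barhl2, a homeobox gene of the nervous system, measured 60.5% and 94.5% of 26211 bp, and Gata3 69.0% and 85.0% of 23104 bp. Nfix went the other way, with 89.9% and 59.9% of 14234 bp. Sox1, Pax1, Gata3 and the Fbxl8 domain were named after their values were seen.

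Extents over 125% were measured for 32 domains in clone 439 (6.96%, against 26.0%) and 43 in clone 442 (9.35%, against 32.7%). Most of these came with a joining of neighbours. A mutant peak that touched a wide domain and at least 1 further WT peak was counted as joined: this held for 33 domains (7.17%, against 7.49%) in clone 439 and 37 (8.04%, against 8.57%) in clone 442. Of the domains over 125%, 22 of 32 in clone 439 and 30 of 43 in clone 442 were joined. The highest mean extent, 304%, belonged to a weak WT domain beside Dlx6 (6306 bp, fold enrichment 4.70). There the WT list held a separate domain of 13740 bp over Dlx6, with a gap of 141 bp between them, and both clones had 1 peak over the pair. Otp was divided in WT between domains of 10978 and 7316 bp and was 1 peak in each clone, as was Tbr1, with 6423 and 7291 bp. Pou3f2, with 127% and 283%, and Tnrc18, with 192% in each clone, were the others among the 5 highest. In clone 442 a single peak also spanned the Hoxc4 to Hoxc8 domain and the domain of Hoxc9 and Hoxc10, which gave 146% and 165%, while clone 439 kept them apart at 99.9% and 99.7%.

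**Figure D2:**
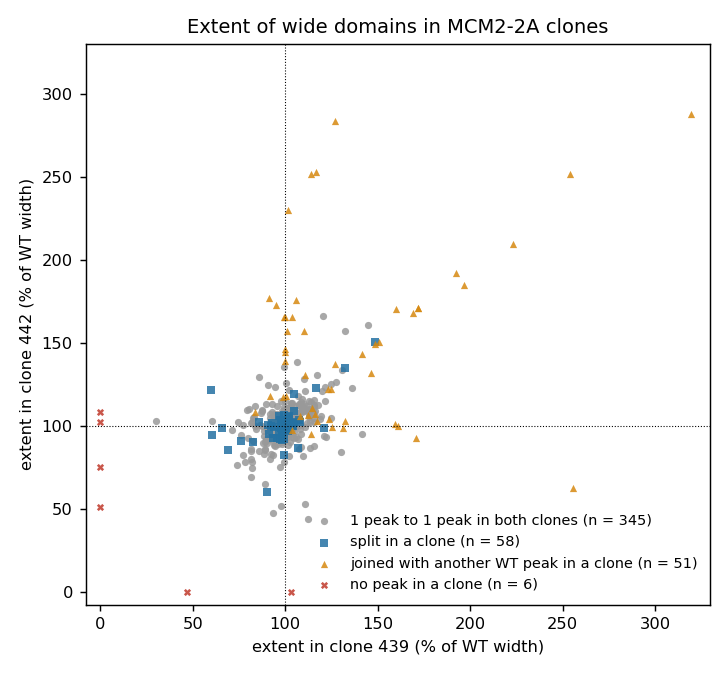
Extent of each of the 460 wide domains in clone 439 and clone 442 (% of WT width); dotted lines mark 100% and symbols give what happened to the domain in either clone. The 345 domains with 1 peak in both clones gather at 100%, joined domains reach up to 320% and 288%, and the 6 domains without a peak lie on the axes.

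Splitting was the change most frequent in wide domains relative to other peaks. In clone 439, 47 domains (10.2%, interval 7.77 to 13.3) were met by at least 2 peaks, against 2.11% of all WT peaks. In clone 442 there were 49 (10.7%, interval 8.15 to 13.8), against 2.41%. Length alone offers more places to break. Per Mb of WT peak, wide domains had 10.4 breaks in clone 439 and 11.3 in clone 442, peaks of 4000 to 6000 bp had 6.85 and 8.93, and all peaks 7.53 and 8.68. The reverse choice gave shares of like size: of 522 wide domains taken from the list of clone 439, 44 (8.43%) were met by at least 2 WT peaks, and of 574 taken from clone 442, 63 (11.0%). The share of WT domains split in the mutant lists rose from 4.35% and 5.43% of the 184 domains of 6000 to 8000 bp to 36.8% and 31.6% of the 19 of 20000 bp or more.

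The breaks were short. Clone 439 had 52 of them with a median gap of 105 bp, and clone 442 had 56 with a median of 110.5 bp, and 80.8% and 82.1% of the gaps were 200 bp or less. The smallest gap between any neighbours in the SUZ12 lists was 68 to 71 bp, so many breaks sat near the resolution of the lists. With peaks up to 1000 bp apart joined in every list before the choice, 5.15% and 4.33% of domains were split. WT had such gaps too: 146 gaps of at most 1000 bp bordered a wide domain, 96 of them of at most 200 bp, and 28 parted 2 wide domains. Only 6 of 52 and 7 of 56 breaks lay inside a WT H3K4me3 peak, although these peaks cover 47.5% of the bases in wide domains.

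Domains in 3 or more pieces numbered 5 in clone 439 (1.09%, against 0.0794% of all WT peaks) and 7 in clone 442 (1.52%, against 0.111%). Meis2 (18298 bp over its start) was in 3 pieces in both clones, with largest gaps of 107 and 90 bp, and still measured 98.1% and 100.3%. Otx2, a homeobox gene of epiblast and forebrain, was in 2 and 3 pieces with gaps of 100 and 338 bp. Lhx5 and a second Bcor domain (chrX:12124769-12136157) had 3 pieces in clone 439, as had Nfix and a Pax1 domain of 6360 bp, and Dlx1 with Dlx2, Tbx15, Pou4f1, Pax2 and Pdgfra had 3 in clone 442. Barhl2 showed a break and a loss at 1 place: clone 442 had a gap of 264 bp about 3 kb to the right of the domain centre, and the peak of clone 439 ended within that gap. In all, 381 domains (82.8%) answered to exactly 1 peak of clone 439 and shared it with no other WT peak, against 83.2% of all WT peaks, and 378 (82.2%) did so in clone 442, against 82.6%. The share over all peaks was lowered by those under 2000 bp, with 73.2% and 73.7%. Peaks of 4000 to 6000 bp answered to 1 peak more often than wide domains, with 91.7% and 89.7%.

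**Figure D3:**
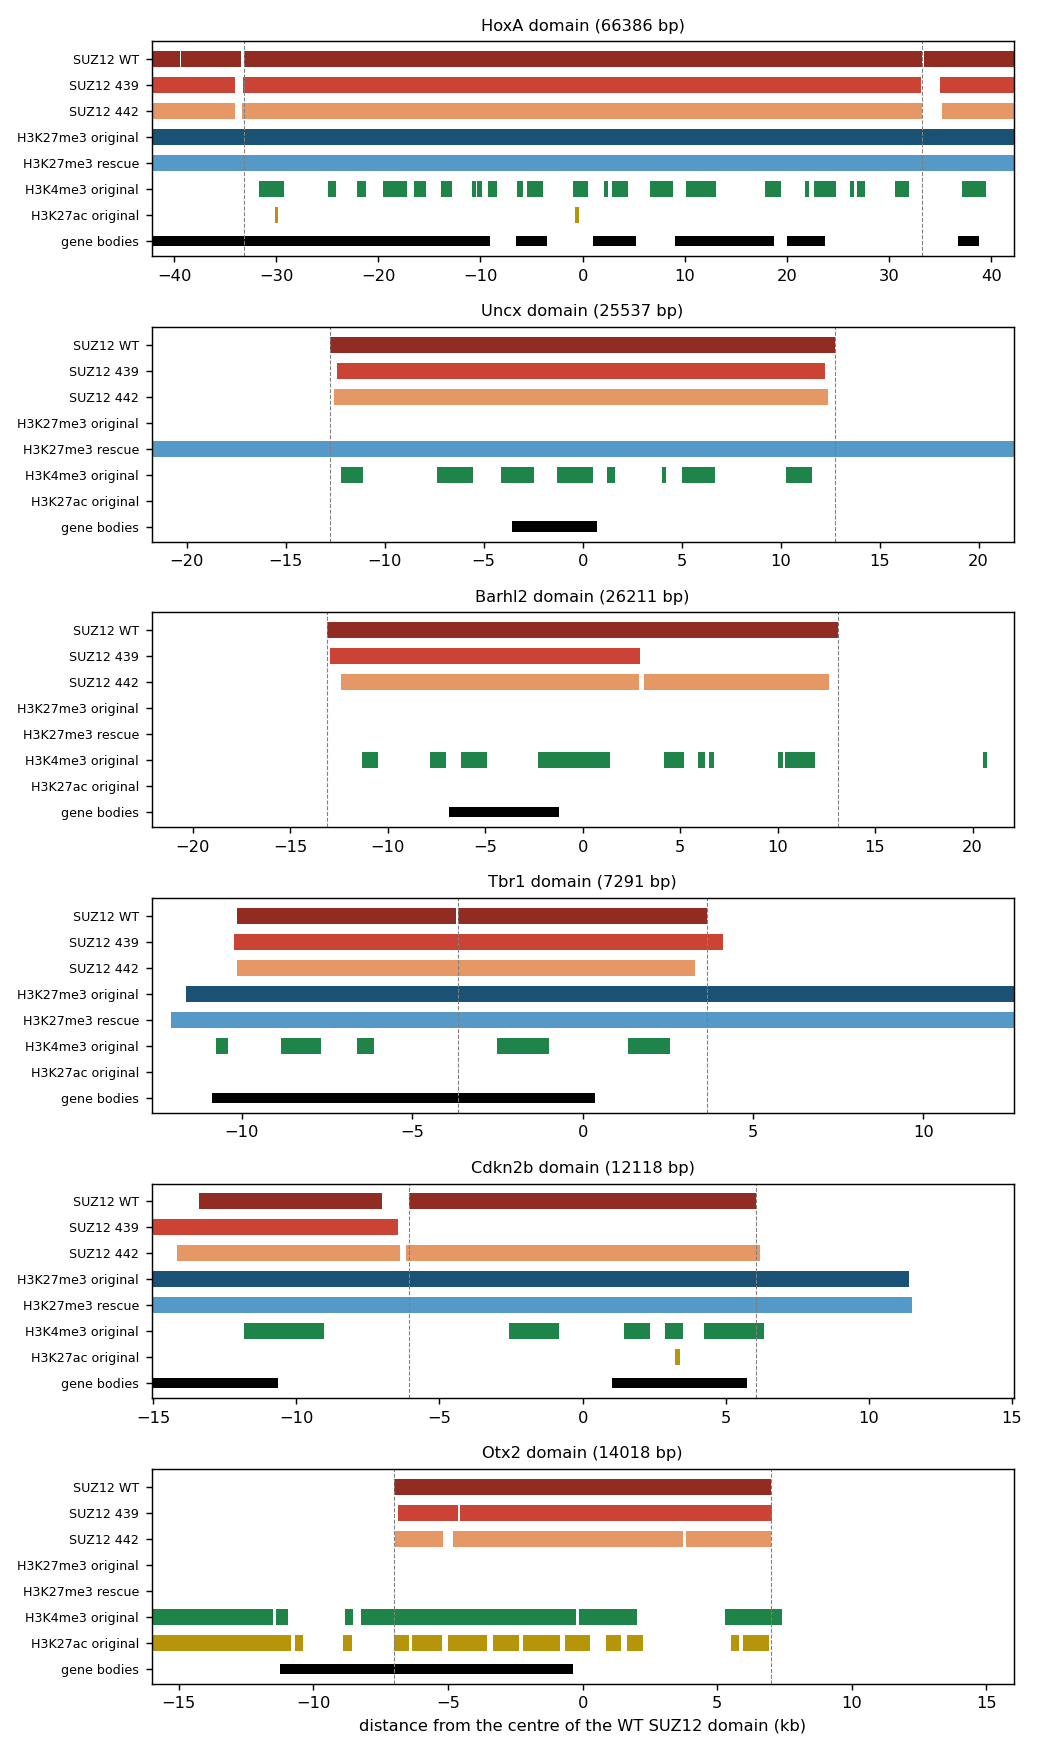
Peaks and regions over 6 wide domains by distance from the domain centre (kb); rows give SUZ12 in WT and clones 439 and 442, WT H3K27me3 (original and rescue), H3K4me3 and H3K27ac, and gene bodies in black, and dashed lines mark the edges of the WT domain. HoxA and Uncx keep their span, Barhl2 loses its right part in clone 439, Tbr1 (the 7291 bp domain) joins its neighbour, Cdkn2b has no peak in clone 439, and Otx2 is broken in both clones.

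Rank within a list was used to compare strength, since fold enrichments of different lists are not on 1 scale. With 0 for the weakest peak and 1 for the strongest, the median rank of wide domains was 0.943 in WT (chosen on a related value), 0.951 in clone 439 (95% interval 0.946 to 0.960) and 0.946 in clone 442 (0.939 to 0.954). A mutant rank is that of the strongest peak touching the domain, which can be shared with a neighbour. Domains without a peak are left out, so WT and mutant ranks are not fully alike. All WT peaks with a counterpart had medians of 0.628 and 0.641 in the 2 clones, against 0.500 for all peaks in WT. The mutant lists are longer, and further weak peaks in a list raise the rank fraction of the others. A like or higher fraction therefore does not show that strength was kept. Ranks of single domains, counted from the strongest of 6298 peaks in WT, 7571 in clone 439 and 7840 in clone 442, differed between lists. Nkx1-1 was first in WT, ranked 5 in clone 439 and 39 in clone 442. Uncx ranked 2, 3 and 549. HoxA ranked 207 in WT, 44 in clone 439 and 25 in clone 442. Gata6 ranked 5 in WT, 124 in clone 439 and 14 in clone 442. Of the 10 strongest domains in WT, 3 were among the 10 strongest peaks of clone 439 and 1 among those of clone 442, and of the 100 strongest, 57 and 51. Rank correlations over the domains were 0.804 between WT and clone 439, 0.758 between WT and clone 442 and 0.750 between the 2 mutant clones (n = 456, 458 and 454 domains).

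H3K27me3, the mark that PRC2 writes, was listed over part of the domains and in an all-or-none way. The original WT list touched 261 domains (56.7%, interval 52.2 to 61.2), against 59.8% of all WT SUZ12 peaks, and covered all bases of 256 (against 55.9%). The rescue list of the same clone touched 338 (73.5%, interval 69.3 to 77.3), against 78.5%, and covered all bases of 334 (against 75.2%). Both lists held 207 domains (45.0%, against 49.5%), the original alone 54 (11.7%, against 10.3%), the rescue alone 131 (28.5%, against 29.0%) and neither 68 (14.8%, against 11.2%). Where present, the regions were far longer than the domains, with medians of 46.9 kb in the original and 69.8 kb in the rescue list. Domains without a region lay a median of 39.8 and 52.4 kb from the nearest one. Absence from a list is not absence of the mark: neighbouring regions were at least 3009 bp apart in both lists, and why a region is missing was not tested.

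Listing of H3K27me3 did not rise steadily with SUZ12 strength. Among the 115 strongest domains the lists touched 52.2% and 76.5%, and among the 115 weakest 58.3% and 79.1%. Gata6, Nr2f2 and Barhl2 were outside both lists. Uncx, Tbx1, Foxe1, Bmi1 and Hlx were outside the original list and fully covered in the rescue list. The HoxA domain and Nkx1-1 were fully covered in both, and the domains of Hoxd8 to Hoxd13, Hoxc4 to Hoxc8, and Hoxc9 with Hoxc10 in the original list alone. Of the 15 domains over Hox genes, the original list held 14 and the rescue list 8. For the 89 domains over other homeobox genes the order was the reverse, with 49 and 65.

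H3K4me3 lay inside nearly every domain, as a row of short peaks. It touched 456 domains (99.1%), against 94.9% of all WT peaks, and the SUZ12 summit was inside an H3K4me3 peak in 456, against 94.3%. The marked part was smaller than under narrow peaks: the median share of bases was 47.1% (95% interval 44.8 to 48.7), against 71.5% over all WT peaks. At least 2 H3K4me3 peaks lay in 353 domains (76.7%), against 13.3%, and at least 3 in 215 (46.7%), against 4.05%. These counts follow in part from the width rule, and per kb the order was the reverse, with a median of 0.268 H3K4me3 peaks in wide domains and 0.457 over all WT peaks. The longest H3K4me3 peak touching a domain had a median of 2877 bp, or 0.294 of the SUZ12 width. HoxA held 22 peaks over 41.9% of its bases, HoxD 19 over 39.4%, Skor1 11 over 63.2% and Pax3 7 over 22.8%, and Nkx1-1 had a single peak over 52.7%. H3K4me3 covered 8.91% of domain edges and 57.8% of points 2 kb inside, so it lay in the interior, whereas H3K27me3 was as frequent at the edge (56.2%) as inside (56.7%) and still present at 39.6% of points 10 kb outside. The rescue list gave the same picture, with 457 domains touched (99.3%, against 95.6%) and a median share of 51.4%.

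**Figure D4:**
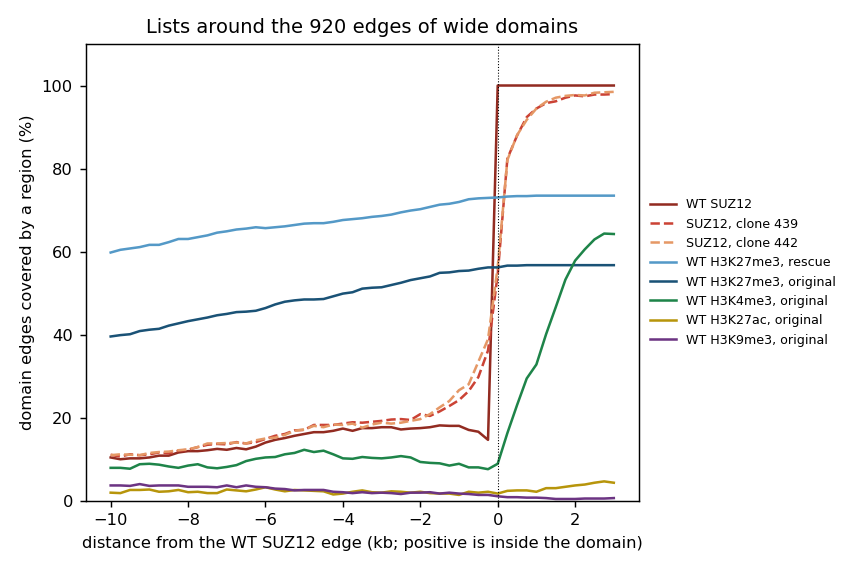
Share of the 920 edges of wide domains (%) covered by a region of each list drawn (the rescue experiment for H3K27me3 only), by distance from the WT SUZ12 edge (kb; positive is inside); lines stand for lists. SUZ12 of both mutant clones rises across the WT edge, from about 36.2% and 38.9% at 250 bp outside to 82.4% and 82.1% at 250 bp inside, H3K4me3 rises inside, H3K27me3 runs flat across the edge, and H3K27ac and the original H3K9me3 list reach at most 4.67% and 4.02%.

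H3K27ac was sparse but not absent. It touched 147 domains (32.0%, interval 27.9 to 36.4), against 23.8%, a count to which width adds as well. With an overlap of at least 500 bp required it was 8.91%. It covered 2.98% of their bases, against 5.00% over all peaks. More than 10% of bases were covered in 35 domains (7.61%), against 17.4%, and the SUZ12 summit lay in an H3K27ac peak in 25 (5.43%), against 8.89%. Its frequency fell with SUZ12 strength, from 41.7% of the 115 weakest domains to 19.1% of the 115 strongest. A few domains were acetylated over most of their length: Otx2 over 8772 bp (62.6%), Tbx3 over 7142 bp (65.5%), Zic5 over 6293 bp (70.0%), Tnrc18 over 5599 bp (91.8%) and Foxd3 over 5593 of 11186 bp. Otx2, Zic5 and Foxd3 are factors of the early epiblast, and Tbx3 belongs to the pluripotency network. These 5 were also well covered by H3K4me3, from 76.1% at Otx2 to 100% at Tnrc18. Of them, Otx2 was broken in both clones, Tbx3 was short or absent, Tnrc18 was joined to a neighbour in both, Zic5 measured 256% and 62.4%, and Foxd3 kept 101.3% and 99.5%. Whether SUZ12 and H3K27ac lay on the same alleles or in the same cells was not tested.

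H3K9me3 touched 14 domains in the original list (3.04%, interval 1.82 to 5.04), against 1.89%, and 58 in the rescue list (12.6%), against 6.13%. It covered 0.726% of their bases, about as much as over all peaks (0.683%). The widest such domains were Hoxc9 with Hoxc10, Bmi1, Dlx1 with Dlx2, Grb10 and Zic4. At Grb10, an imprinted growth regulator, it covered 39.5% of 17864 bp in the original list and 36.3% in the rescue list, next to H3K27me3 over the whole domain. At Zic4 it covered 42.0% and 35.2% of 13226 bp, where neither list had H3K27me3.

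In the original list 4 domains had no H3K4me3 peak, and all 4 were weak. They lay beside Peg12 (chr7:62447716-62459408, fold enrichment 9.41), far from any gene, with Tmco5 the nearest at 315048 bp (chr2:116552129-116563644, 5.86), within Tet3 (chr6:83416736-83423548, 6.08) and beside Dlx6 (chr6:6847434-6853739, 4.70). The Tmco5 domain was covered by H3K9me3 over 100% of its bases in both lists, and both clones had SUZ12 there at 91.6% and 104.7% of the WT extent. The Peg12 domain was in 2 pieces in each clone, and the Tet3 domain in 2 pieces in clone 442 alone.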

How the data were processed

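From the ChIP-seq libraries 10 lists were used (SUZ12 in clones 410, 439 and 442, and the marks in WT clone 410), on mm10 (GRCm38) coordinates. Tools listed in the submitters' processing notes, with no role stated, were MACS2 2.1.0, Picard 2.20.7, cutadapt 2.5 and BWA 0.7.15. In the narrow lists (SUZ12, H3K4me3, H3K27ac) the authors deposited for each peak a score, a ratio to the local background (fold enrichment) and a −log10 q value, with replicates combined. The broad lists (H3K27me3, H3K9me3) were deposited with a length and unnamed score columns. Peaks of SUZ12 were deposited as a list reproducible between replicates (IDR), so depth per replicate is unknown and numbers of reads are not analysed here. No column was left unmapped (0).

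Regions were matched by an overlap of at least 1 bp with Python 3.11.15, NumPy 2.4.6 and pandas 2.3.3. Extent was the summed full length of the touching mutant peaks over the WT width. Genes were 21896 protein-coding RefSeq genes, and starts on chromosome 18 were not used here. Wilson and order-statistic intervals (95%) were computed with SciPy 1.17.1. The overlap code was tested on simulated data, and figures were drawn with Matplotlib 3.10.9. No replicate values exist in the lists, so no test between groups was made. The members and the gene lists were chosen with earlier results of these data known. Named domains were the 10 widest and 10 strongest, the 5 with the lowest and 5 with the highest mean extent, up to 10 in 3 or more pieces, up to 5 each by mark, the 3 on either side of the threshold, and up to 4 genes of each list by width; some of these are not reported here. Others were named after their values were seen: Gata3, Sox1, Nkx2-3, Hsf4 and Fbxl8, a Pax1 domain, the domains at the HoxC cluster where joined, and examples of H3K27me3 listing beyond 5. Alternatives were other width thresholds, joining of close peaks, stricter lists, clipping, another strength value, the rescue lists, a larger overlap and wider gene windows.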

Additional observations from a re-analysis of the deposited data

How the results depend on the processing

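Of 68 alternative values, 45 stayed inside the interval of the value reported and 23 fell outside it. Counts of domains and of genes have no interval, and a limit on their fold change was used instead. A threshold of 8000 bp left 276 domains and 308 genes, with 14.1% split in each clone and median ranks of 0.964 and 0.955, and one of 5000 bp gave median ranks of 0.939 and 0.930 and 49.1% of bases under H3K4me3. With peaks up to 1000 bp apart joined, 5.15% and 4.33% of domains were split, and with the 5000 strongest peaks of each list 7.0% in clone 442. Mutant peaks clipped to the WT domain, which cannot exceed it, gave extents of 99.2% and 99.0%. Ranking by −log10 q gave 0.955 in clone 442. Some of the alternatives were chosen after seeing the data. Domains taken from the lists of clones 439 and 442 had a WT peak in 98.5% and 98.1%, and a RefSeq start inside the domain gave 290 genes. The rescue lists gave 73.5% with H3K27me3, 12.6% with H3K9me3 and 51.4% of bases under H3K4me3, an overlap of 500 bp gave 8.91% with H3K27ac, and the stronger part of each mark list gave 14.8% with H3K27ac and 1.52% with H3K9me3. Where no construction shows it, the cause was not tested. No paired analysis was possible because each list combines the replicates of 1 clone and holds no value per replicate, and for the same reason no replicate could be left out.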

Other observations

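Bcor, a subunit gene of a PRC1 variant, carried 3 wide domains (18099, 11389 and 6001 bp), and their fates differed. The widest was absent from clone 439 and at 50.9% in clone 442, the next was in 3 pieces in clone 439 with 98.1% of its extent and whole in clone 442 at 91.3%, and the smallest, which holds a RefSeq start of the gene, measured 103% and 102%. H3K27me3 covered the widest domain in both WT lists and the other 2 in the rescue list alone. Pax2 also had a pair of domains, of 14776 and 8939 bp, with extents of 165% and 230% in clone 442, where the wider one was met by 3 peaks and 1 peak touched both, and of 99.6% and 101.3% in clone 439, where none did.

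Domains chosen in 1 mutant list and followed in the other changed about as often as WT domains did in either. Of 522 wide domains of clone 439, 46 (8.81%) were split in clone 442, with a median extent of 99.97%. Of 574 wide domains of clone 442, 65 (11.3%) were split in clone 439, with a median extent of 99.5%.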
